A study of Mus musculus with 20 samples.

Results

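The genes described here are 36 mouse genes of cholesterol and fatty acid synthesis, their regulators and the genes of sterol transport and export. They were listed by symbol and matched to the 35226 Ensembl genes of the count table. All 36 were found and all 36 passed the filter on low counts, which left 16665 genes for testing. By role, 6 were regulators, 7 belonged to the mevalonate pathway, 9 to the steps from farnesyl pyrophosphate to cholesterol, 10 to fatty acid and glycerolipid synthesis, and 4 to sterol transport and export.

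The RNA came from 20 tumors, 5 per group, grown from LLC1 cells, a mouse Lewis lung carcinoma line, that had been injected with Matrigel under the skin of the flank. The hosts were male C57Bl6/J mice aged 8 to 10 weeks. Once tumors had reached a set volume, mice received vehicle, KW6002 (istradefylline, an antagonist of the adenosine receptor Adora2a), cisplatin, or cisplatin and KW6002 (cotreatment). The carrier of KW6002 was a mixture of DMSO, cremophor and saline. The study asked whether KW6002 can protect the kidney and peripheral nerves from cisplatin without loss of its effect on tumors.

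Sterol synthesis is set by 2 transcription factors held in the endoplasmic reticulum, SREBP-1 (Srebf1) and SREBP-2 (Srebf2). When membrane cholesterol is low, Scap escorts them to the Golgi, where they are cut and released to the nucleus, and when it is high the Insig proteins hold them back. SREBP-2 mainly drives the cholesterol genes and SREBP-1 the fatty acid genes, whereas the oxysterol receptor LXR beta (Nr1h2) drives the export genes Abca1 and Abcg1, and Mylip, which limits uptake, when sterols are plentiful.

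Most of the listed genes of cholesterol synthesis were lower after cisplatin, with or without KW6002. Of the 16 mevalonate and sterol genes, 15 were called lower after cisplatin and 15 after cotreatment, with median log2 fold changes of -0.79 and -0.64, where 4.57% and 10.4% of all genes tested were called lower. Srebf2 was lower as well, whereas Srebf1 was not called in any comparison. In the fatty acid branch Fads1, Fads2, Elovl6 and Acly were lower in both arms. Mylip was higher in both arms, and Lpin1 was called higher against vehicle in cotreated tumors and not in cisplatin tumors. A gene was called when its Benjamini-Hochberg adjusted P value in edgeR's quasi-likelihood test was under 0.05 over all genes tested and it differed by 0.32 or more on the log2 scale.

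**Figure D1:**
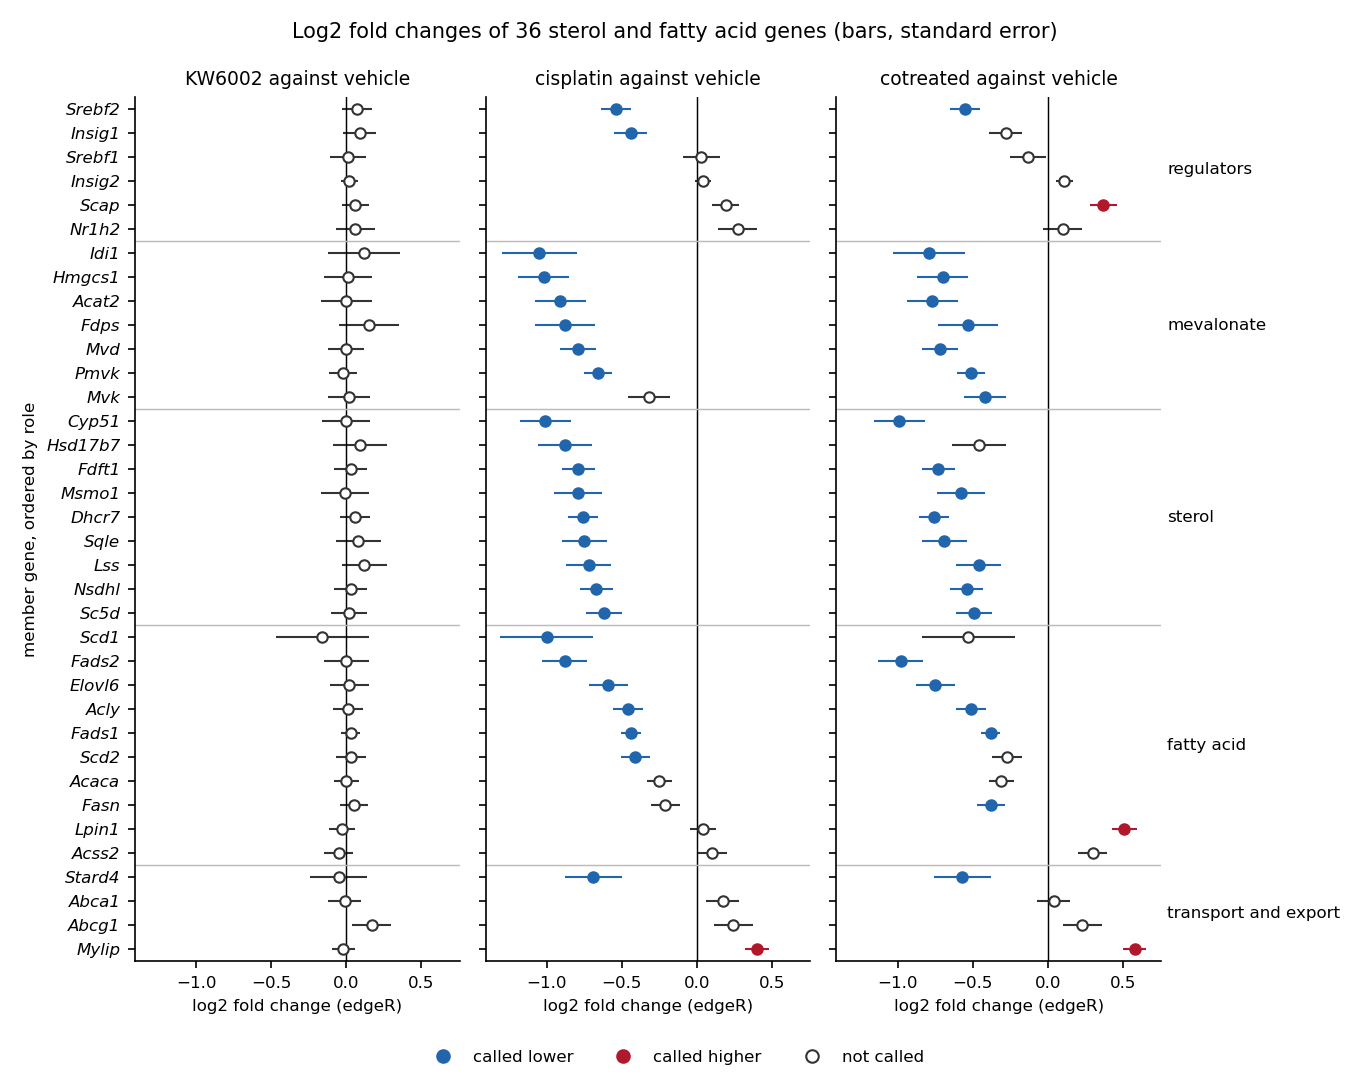
Log2 fold change of each of the 36 genes against vehicle (horizontal axis) with its standard error (bars), by role, for KW6002, cisplatin and cotreatment (5 tumors per group). Filled points were called; with KW6002 alone no point is filled, and in both cisplatin arms the mevalonate and sterol genes lie to the left of 0.

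To show the promoters of genes from both sides of this split, stretches upstream of 4 start sites were taken from the RefSeq promoter table for GRCm38.p6, which covers 250 bases before to 50 bases after a start site and held 28 of the 36 genes (no entry was matched for Abcg1, Fads1, Fdft1, Fdps, Scd1, Scd2, Sqle and Stard4). Hmgcs1 (chr13:119690171-119690320, plus strand, bases -180 to -31), Mvd (chr8:122443438-122443497, minus strand, -75 to -16) and Lss (chr10:76531495-76531584, plus strand, -110 to -21) fell with cisplatin, and Mylip (chr13:45389542-45389691, plus strand, -200 to -51) rose. Each is written 5′ to 3′ on the strand of the gene, and capitals mark the NF-Y box CCAAT or its reverse complement ATTGG and, in Hmgcs1, the sterol regulatory element.
Hmgcs1: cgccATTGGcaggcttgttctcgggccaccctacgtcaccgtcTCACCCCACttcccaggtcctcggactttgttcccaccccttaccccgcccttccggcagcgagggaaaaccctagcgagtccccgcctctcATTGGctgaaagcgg
Mvd: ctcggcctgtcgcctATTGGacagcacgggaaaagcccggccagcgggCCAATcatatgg
Lss: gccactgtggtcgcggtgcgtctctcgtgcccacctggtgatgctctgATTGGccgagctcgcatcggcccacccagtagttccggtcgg
Mylip: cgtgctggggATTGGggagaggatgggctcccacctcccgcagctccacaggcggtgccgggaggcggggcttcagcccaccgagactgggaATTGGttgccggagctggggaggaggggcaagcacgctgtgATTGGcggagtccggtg

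The sterol regulatory element, searched on both strands only as TCACNCCAC, was found in the Hmgcs1 promoter, starting 137 bases before the start site. No other promoter of these genes held this form. Variant forms were not searched, so the other promoters may still hold such an element. The form searched was present in 1.24% of the 32851 promoters of the table. The NF-Y box was found in promoters of 20 of the 28 genes, including 5 of 6 mevalonate genes, 7 of 7 sterol genes and 3 of 7 fatty acid genes, against 41.1% of all 27025 genes of the table. Some genes have several promoters, and counted by promoter the box was in 21 of the 36 promoters of these 28 genes (58.3%), against 37.4% of all promoters. The Sp1 box GGGCGG was found in 26 of these 36 promoters (72.2%, against 35.7% of all) and the E-box CACGTG in 7 (19.4%, against 7.15%). These shares are over the whole table, which was not limited to genes that passed the filter on low counts, as the listed genes did. A comparison limited to such genes was not made. No promoter of these genes held the 1 form of the LXR element searched, an exact pair of AGGTCA repeats spaced by 4 bases. This form was in only 0.0152% of all promoters and variants were not searched. Its absence therefore does not show that these genes lack an LXR element. Mylip, which rose, held NF-Y boxes as did genes that fell.

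Levels are given as CPM, or counts per M reads of library size after TMM scaling, and tumors are listed by replicate number. Library totals lay between 28.4 and 41 M reads. Relative to exon length, vehicle tumors had most Scd2, a stearoyl-CoA desaturase, at 203 CPM per kb of exon, followed by Acly at 71.9 and Scd1 at 70.6. Hmgcs1 was the highest of the mevalonate genes at 44.9 CPM per kb and Idi1 the lowest of all 36 at 0.71. The tumors expressed the simple epithelial keratins Krt8 and Krt18 (at most 215 and 378 CPM), but Epcam did not exceed 0.144 CPM, Cdh1 3.87 CPM and Krt7 1.03 CPM in any tumor, and the lung genes Sftpc and Scgb1a1 had at most 1 and 2 counts.

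KW6002 given alone changed none of the 36 genes past the test. It was compared with vehicle to see whether the antagonist acts on these genes without cisplatin. In edgeR 0 of 36 genes were called, 0 of them had an unadjusted P value under 0.05 (2.03% of all genes tested did), and DESeq2 also called 0, as 0% of all genes tested were called. Log2 fold changes lay between -0.16 (Scd1) and 0.17 (Abcg1), with standard errors between 0.056 and 0.31. The median was 0.02 over the 36 genes and 0.00 over all genes tested. No gene of the list had groups that did not overlap (0.210% of all genes tested lay wholly higher and 0.132% wholly lower).

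Cisplatin given alone was compared with the same vehicle tumors. It changed 25 of the 36 genes, 1 higher and 24 lower, where 10.6% of all genes tested were called, 6.01% higher and 4.57% lower. The median log2 fold change was -0.61 over the 36 genes and 0.00 over all genes tested. Cisplatin tumors lay wholly below vehicle tumors in 15 of the 36 genes (5.12% of all genes tested) and wholly above in 1, Mylip (5.23%). In RNA from whole tumors, fewer cells that express a gene and less of its RNA per cell cannot be told apart.

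The mevalonate pathway builds farnesyl pyrophosphate from acetyl-CoA, and 6 of its 7 genes fell with cisplatin, with a median of -0.88. Of all genes tested, 4.57% were called lower. Hmgcs1 (ENSMUSG00000093930, chromosome 13, 119690379 to 119708260) encodes the synthase that makes HMG-CoA. Its level was 166, 202, 216, 247 and 200 CPM in vehicle tumors and 143, 112, 84.3, 74.2 and 95.7 CPM in cisplatin tumors. In KW6002 tumors it was 222, 228, 164, 198 and 224 CPM, and in cotreated tumors 171, 117, 136, 98.8 and 113 CPM. All cisplatin tumors lay below all vehicle tumors, whereas cotreated tumor 1 lay just inside the vehicle range. The log2 fold change was -1.02 ± 0.17 (SE) after cisplatin (adjusted P = 0.000498, edgeR) and -0.70 ± 0.17 after cotreatment (adjusted P = 0.0029, edgeR).

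Pmvk (ENSMUSG00000027952, chromosome 3, 89454541 to 89469013) and Mvd (ENSMUSG00000006517, chromosome 8, 122433601 to 122443422) encode the kinase and the decarboxylase that turn phosphomevalonate into isopentenyl pyrophosphate. Pmvk was at 32.1, 39.4, 39.3, 42.4 and 36 CPM in vehicle, 42.0, 40.3, 35.4, 34.6 and 34.2 CPM in KW6002, 29.6, 21.8, 21.4, 23.5 and 24.0 CPM in cisplatin, and 29.1, 26.6, 28.3, 22.3 and 27.0 CPM in cotreated tumors. Mvd was at 29.8, 32.5, 37.8, 28.3 and 27.7 CPM in vehicle, 36.3, 32.5, 30.4, 30.0 and 26.5 CPM in KW6002, 21.2, 13.5, 16, 20.3 and 19.0 CPM in cisplatin, and 20.9, 19.4, 18.9, 15.7 and 19.9 CPM in cotreated tumors. For both genes every tumor that had received cisplatin lay below every tumor that had not. Pmvk fell by 0.66 ± 0.095 on the log2 scale after cisplatin and by 0.51 ± 0.095 after cotreatment, and Mvd fell by 0.79 ± 0.12 and 0.72 ± 0.12.

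Among the other mevalonate genes, the largest change after cisplatin was in Idi1, the isopentenyl pyrophosphate isomerase, at -1.05 ± 0.25, but it rests on 31 to 55 counts per cisplatin tumor. Acat2, the cytosolic acetoacetyl-CoA thiolase, and Fdps, farnesyl pyrophosphate synthase, had values of -0.91 and -0.88. Mvk, mevalonate kinase, was the exception, with a log2 value of -0.32 ± 0.14 that was not called (adjusted P = 0.138, edgeR). Cisplatin tumor 4 had its group's highest Mvk level, 20.2 CPM, and lay inside the vehicle range of 15.9 to 24.9 CPM. The counts of Acat2, Fdps and Idi1 are less certain, since 39.1%, 26.2% and 25.3% of the 50-base windows of their transcripts also occur in a transcript of another gene, and reads that could not be placed in 1 gene were not counted.

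The 9 sterol genes of the list, which act between farnesyl pyrophosphate and cholesterol, all fell with cisplatin, with a median of -0.76 and a range of -1.01 to -0.62. Of all genes tested, 4.57% were called lower after cisplatin. Ebp (-0.08), Tm7sf2 (-0.27) and Lbr (-0.18), which act on the same route but are not in the list, were not called. Fdft1 (ENSMUSG00000021273, chromosome 14, 63145150 to 63179578), squalene synthase, commits the route to sterols. Its level was 66.8, 75.9, 73.4, 83 and 75.5 CPM in vehicle, 77.8, 79.5, 71.8, 77.5 and 74.7 CPM in KW6002, 59.7, 40.3, 37.6, 35.8 and 42.6 CPM in cisplatin, and 54.0, 42.9, 48.8, 37.8 and 42.0 CPM in cotreated tumors. Every tumor given cisplatin lay below every tumor not given it, and cisplatin tumor 1 stood apart above the rest of its group. The log2 fold change was -0.79 ± 0.11 after cisplatin (adjusted P = 8.82e-05, edgeR) and -0.73 ± 0.11 after cotreatment, and 26.5% of its transcript windows are shared with another gene.

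Sqle (ENSMUSG00000022351, chromosome 15, 59315077 to 59331192), squalene epoxidase, was at 136, 156, 149, 170 and 145 CPM in vehicle, 173, 178, 137, 162 and 147 CPM in KW6002, 129, 90.9, 73.6, 64.7 and 90.6 CPM in cisplatin, and 115, 83, 104, 74.4 and 90.8 CPM in cotreated tumors. Cyp51 (ENSMUSG00000001467, chromosome 5, 4081145 to 4104746), the lanosterol demethylase, was at 104, 133, 121, 150 and 130 CPM in vehicle, 137, 139, 107, 119 and 134 CPM in KW6002, 94.1, 64.5, 53.3, 45.1 and 59.6 CPM in cisplatin, and 82.7, 57.1, 69.2, 48.1 and 63.4 CPM in cotreated tumors. Both genes separated the tumors with cisplatin from those without, and in both the first cisplatin tumor and the first cotreated tumor were the highest of their groups. Cyp51 was lowered to 0.497 times the vehicle level after cisplatin and 0.503 times after cotreatment, with log2 values of -1.01 ± 0.17 and -0.99 ± 0.17. Sqle changed by -0.75 ± 0.15 and -0.69 ± 0.15.

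Nsdhl (ENSMUSG00000031349, chromosome X, 72918557 to 72958514), a sterol dehydrogenase, was at 40.2, 48.4, 47.9, 54.7 and 49.0 CPM in vehicle, 54.0, 49.2, 42.4, 50.8 and 49.0 CPM in KW6002, 37.8, 30.4, 25.7, 26.4 and 30.7 CPM in cisplatin, and 36.7, 32.8, 36.8, 25.9 and 33.3 CPM in cotreated tumors. Dhcr7 (ENSMUSG00000058454, chromosome 7, 143823145 to 143848410), the reductase of the last step to cholesterol, was at 37.6, 41.6, 41, 43.7 and 43.8 CPM in vehicle, 47.8, 49.2, 40.2, 39.1 and 40.8 CPM in KW6002, 30.4, 24.5, 23.7, 19.9 and 24.2 CPM in cisplatin, and 29.9, 22.5, 23.4, 21.4 and 25.4 CPM in cotreated tumors. Neither gene showed an overlap between tumors with and without cisplatin. Dhcr7 had the smallest adjusted P value of the list in any comparison, 4.65e-06 in edgeR for cotreatment with KW6002, where it changed by -0.82 ± 0.10. Its log2 fold change against vehicle was -0.76 ± 0.10 in both cisplatin arms. Nsdhl changed by -0.67 ± 0.11 and -0.54 ± 0.11.

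The remaining sterol genes were Hsd17b7, a sterol ketone reductase (-0.88), Msmo1, the methylsterol oxidase (-0.79), Lss, lanosterol synthase (-0.72), and Sc5d, a sterol desaturase (-0.62). After cotreatment Hsd17b7 was the single gene of the 16 that was not called, at -0.46 ± 0.18 with an adjusted P of 0.0507 (edgeR, between 4.86e-05 and 0.229 over the alternatives). Cotreated tumors 1 and 3, at 40.6 and 37.8 CPM of Hsd17b7, lay close to or inside the vehicle range of 38.1 to 47.9 CPM, and cisplatin tumors lay between 16.3 and 32.8 CPM.

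**Figure D2:**
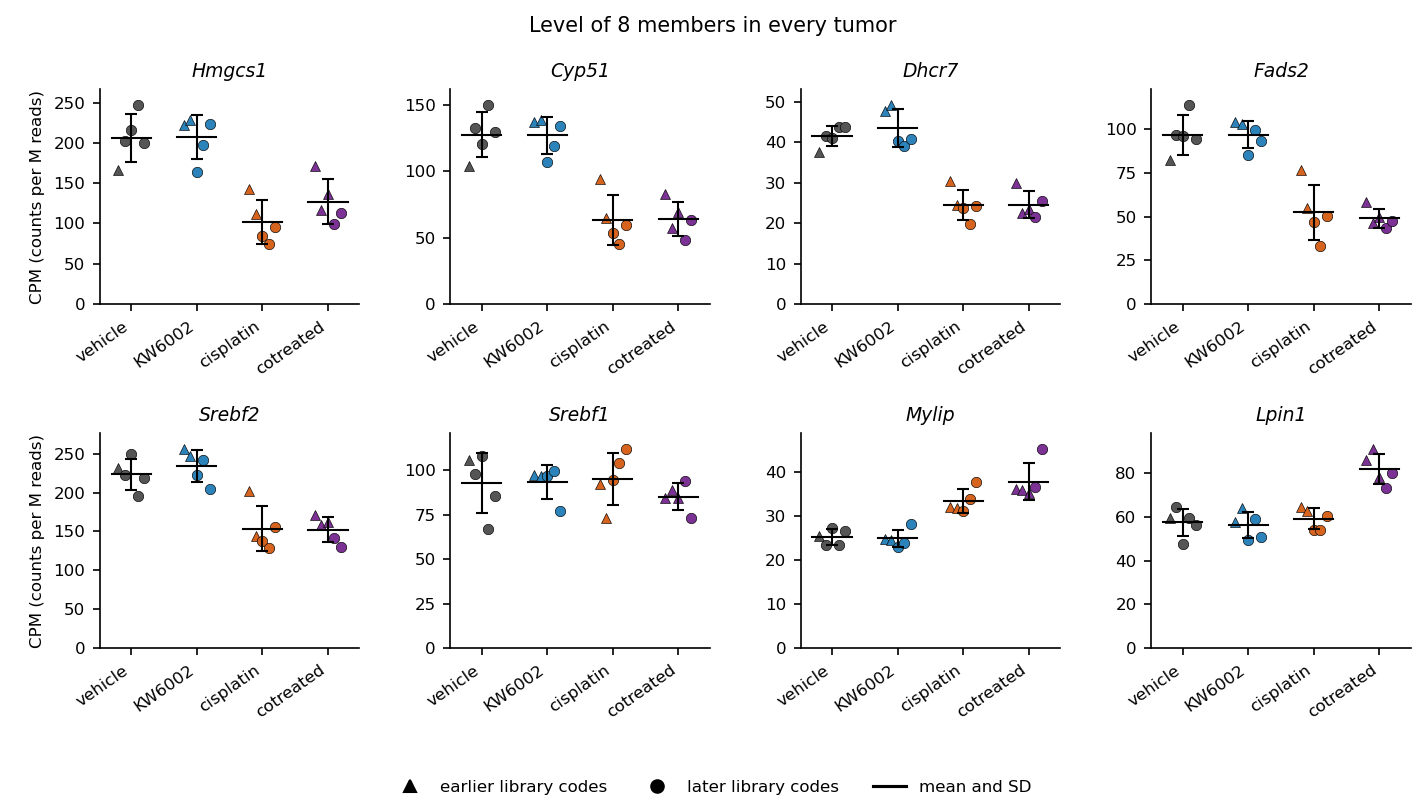
CPM of 8 genes in every tumor (vertical axis, starting at 0), with the mean and SD of each group of 5. Triangles are tumors of the earlier run of library codes and circles those of the later run. Hmgcs1, Cyp51, Dhcr7, Fads2 and Srebf2 are lower in the cisplatin arms, Srebf1 is level, Mylip is higher in both arms and Lpin1 in cotreated tumors.

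The regulators did not move together. Srebf2 (ENSMUSG00000022463, chromosome 15, 82147181 to 82205379) was at 231, 223, 250, 195 and 219 CPM in vehicle, 256, 247, 223, 242 and 204 CPM in KW6002, 202, 144, 138, 128 and 155 CPM in cisplatin, and 171, 158, 162, 141 and 130 CPM in cotreated tumors. Cotreated tumors lay wholly below vehicle, while cisplatin tumor 1, at 202 CPM, overlapped vehicle tumor 4. The log2 fold change was -0.54 ± 0.10 after cisplatin (adjusted P = 0.00134, edgeR) and -0.55 ± 0.10 after cotreatment (adjusted P = 0.000337, edgeR). Insig1, itself a target of the SREBP factors, was lower after cisplatin (-0.44 ± 0.11, but -0.20 and not called in the earlier run of library codes with separate run terms) and at -0.28 ± 0.11 after cotreatment, where it was not called (adjusted P = 0.0541 in edgeR, between 0.000544 and 0.552 over the alternatives), but was called lower in the later run of library codes alone (-0.47) and with the run as a term (-0.36). Srebf1 (0.03 and -0.13), Insig2 (0.04 and 0.11) and Nr1h2 (0.27 and 0.10) were called in neither arm, although in the later run of library codes alone Nr1h2 was called higher after cisplatin (0.50, adjusted P = 0.0449 in edgeR, between 0.0326 and 0.9 over the alternatives). Scap, the SREBP escort, had a value of 0.19 after cisplatin and was called higher after cotreatment at 0.37 ± 0.089 (adjusted P = 0.0031, edgeR), but without cotreated tumor 2, which had 158 CPM, the value was 0.30 and below the fold limit, and in the later run of library codes alone it was 0.25 and not called (adjusted P = 0.105, between 0.000483 and 0.105 over the alternatives).

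In fatty acid and glycerolipid synthesis, 6 of 10 genes were called lower after cisplatin and none higher. Of all genes tested, 4.57% were called lower and 6.01% higher. Fads2 (ENSMUSG00000024665, chromosome 19, 10062765 to 10101746) and Fads1 (ENSMUSG00000010663, chromosome 19, 10182888 to 10196877) encode the desaturases that make long polyunsaturated fatty acids. Fads2 was at 82.3, 96.8, 96.2, 114 and 94.8 CPM in vehicle, 104, 103, 85.1, 99.6 and 93.4 CPM in KW6002, 76.8, 55.2, 46.8, 33.5 and 50.5 CPM in cisplatin, and 58.3, 46.5, 49.7, 43.7 and 47.3 CPM in cotreated tumors. Fads1 was at 105, 103, 105, 117 and 115 CPM in vehicle, 119, 114, 103, 115 and 106 CPM in KW6002, 90.8, 81.3, 79.5, 71.3 and 78.5 CPM in cisplatin, and 88.6, 91.1, 82.2, 76.7 and 81.3 CPM in cotreated tumors. In both genes no tumor given cisplatin reached the level of a tumor not given it. The change was larger in Fads2, at -0.88 ± 0.15 and -0.98 ± 0.15, than in Fads1, at -0.44 ± 0.064 and -0.38 ± 0.064, a difference between genes that was not itself tested.

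Elovl6 (ENSMUSG00000041220, chromosome 3, 129532355 to 129638495) elongates palmitate to stearate. Its level was 145, 164, 150, 201 and 168 CPM in vehicle, 171, 188, 152, 165 and 166 CPM in KW6002, 151, 124, 101, 80.7 and 92.1 CPM in cisplatin, and 117, 93.3, 98.4, 85.7 and 99.2 CPM in cotreated tumors. Cotreated tumors lay wholly below vehicle and cisplatin tumor 1 within the vehicle range, with log2 values of -0.59 ± 0.13 after cisplatin and -0.75 ± 0.13 after cotreatment. Acly (ENSMUSG00000020917, chromosome 11, 100476353 to 100528000) makes cytosolic acetyl-CoA from citrate for both branches. It was at 329, 402, 390, 410 and 368 CPM in vehicle, 396, 408, 368, 370 and 372 CPM in KW6002, 343, 290, 260, 232 and 254 CPM in cisplatin, and 323, 278, 275, 225 and 234 CPM in cotreated tumors. Here, too, cisplatin tumor 1 reached into the vehicle range while cotreated tumors lay below it, and the log2 values were -0.46 ± 0.098 and -0.51 ± 0.098. In the earlier run of library codes with separate run terms, neither Elovl6 (-0.40) nor Acly (-0.24) was called after cisplatin.

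Fasn (ENSMUSG00000025153, chromosome 11, 120805846 to 120824547), the fatty acid synthase, was at 389, 410, 441, 304 and 334 CPM in vehicle, 430, 429, 385, 377 and 328 CPM in KW6002, 350, 299, 335, 319 and 325 CPM in cisplatin, and 324, 314, 281, 271 and 253 CPM in cotreated tumors. Its groups overlapped in both comparisons with vehicle. It was not called after cisplatin (-0.21 ± 0.094, adjusted P = 0.143, edgeR) and was called lower after cotreatment (-0.38 ± 0.094, adjusted P = 0.00347, edgeR), a call lost without vehicle tumor 3, when the value was -0.31. Acaca, acetyl-CoA carboxylase, stayed under the fold limit at -0.25 and -0.31 (it was called lower after cisplatin at -0.32 without cisplatin tumor 1, and in the later run of library codes alone in both arms, at -0.43 after cisplatin and -0.39 after cotreatment), and 30.4% of its transcript windows are shared with other genes. Acss2, which makes acetyl-CoA from acetate, had values of 0.10 and 0.30 and was not called against vehicle.

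Scd1 is described because the size of its fold change depends strongly on 1 tumor, a choice made after its values were seen. Vehicle tumors had 234, 731, 250, 269 and 242 CPM, KW6002 tumors 492, 259, 208, 325 and 263 CPM, cisplatin tumors 216, 173, 149, 148 and 176 CPM, and cotreated tumors 337, 268, 201, 179 and 212 CPM. Vehicle tumor 2 stood far above the other 19 tumors, and cisplatin tumors lay wholly below vehicle. Scd1 was called lower after cisplatin at -1.0 ± 0.31 (adjusted P = 0.0373, edgeR, between 0.0118 and 0.331 over the alternatives), and without vehicle tumor 2 the value was -0.52 (adjusted P = 0.119). Leaving out cisplatin tumor 2, 3, 4 or 5 also ended the call (adjusted P = 0.0609 to 0.0892), with values of -1.01 to -0.94. Vehicle tumor 2 also had the highest summed level of 8 adipocyte markers, 344 CPM against 21.6 to 34.3 CPM in the other vehicle tumors, 19.3 to 168 CPM in KW6002, 13.3 to 35.7 CPM in cisplatin and 28.4 to 85.1 CPM in cotreated tumors. KW6002 tumor 1 was the next highest in both measures, with 492 CPM of Scd1 and 168 CPM of adipocyte markers. After cotreatment Scd1 was not called (-0.53 ± 0.31, adjusted P = 0.202, edgeR), and the groups overlapped. With the adipocyte level as a term, chosen after seeing the data, Scd1 had a log2 value of -0.37 after cisplatin (adjusted P = 0.129) and -0.40 after cotreatment (adjusted P = 0.0392, between 0.0392 and 0.895 over the alternatives). Scd2, the more abundant desaturase, lay between 1020 and 1190 CPM in vehicle and between 686 and 1020 CPM in cisplatin tumors (-0.41 ± 0.098). After cotreatment its value was -0.27 ± 0.098, under the fold limit (adjusted P = 0.0366, edgeR).

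**Figure D3:**
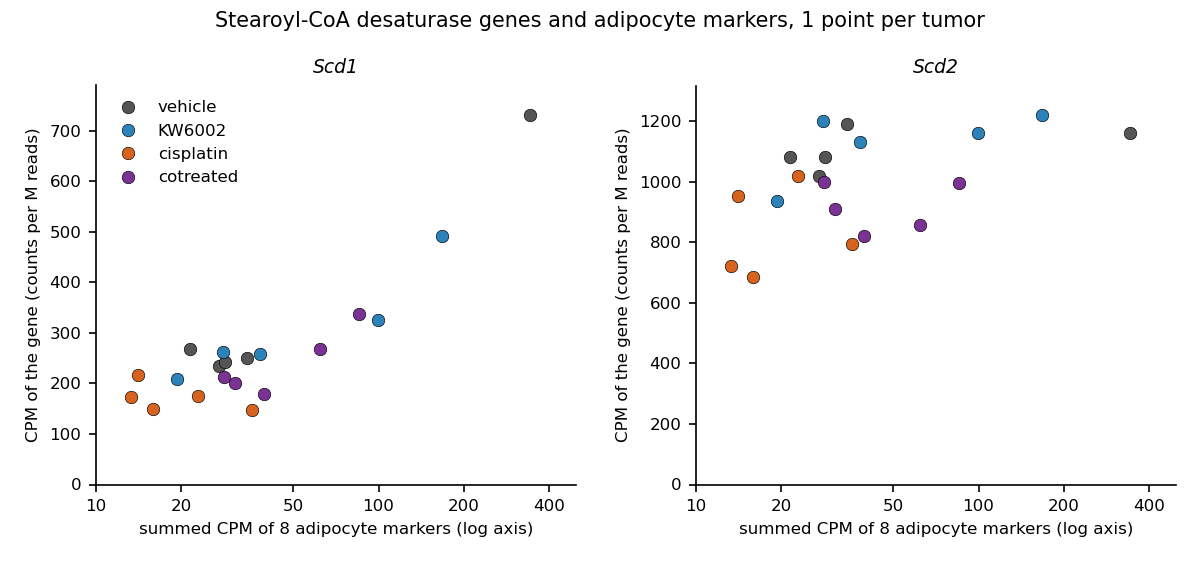
CPM of Scd1 and Scd2 (vertical axes, from 0) against the summed CPM of 8 adipocyte markers (log axis), 1 point per tumor and colored by group. The tumor with 731 CPM of Scd1 is also the one with 344 CPM of adipocyte markers, whereas Scd2 in that tumor lies within the range of the other vehicle tumors.

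Among the genes of transport and export, Mylip (ENSMUSG00000038175, chromosome 13, 45389742 to 45412022), a ubiquitin ligase that lowers the uptake of lipoprotein cholesterol, was the one member called higher after cisplatin. Its level was 25.5, 23.5, 27.2, 23.4 and 26.6 CPM in vehicle, 24.7, 24.6, 23.0, 23.9 and 28.2 CPM in KW6002, 32.1, 31.7, 31.2, 33.9 and 37.8 CPM in cisplatin, and 36.2, 35.8, 35.2, 36.6 and 45.2 CPM in cotreated tumors. Every tumor given cisplatin lay above every tumor not given it. The log2 fold change was 0.40 ± 0.077 after cisplatin (adjusted P = 0.00135, edgeR) and 0.58 ± 0.077 after cotreatment (adjusted P = 9.07e-06, edgeR). The cholesterol exporters Abca1 (0.17 and 0.04) and Abcg1 (0.24 and 0.23), which share the LXR receptors as activators with Mylip, were not called. In the later run alone Abcg1 was called higher after cisplatin at 0.48 (adjusted P = 0.00695 in edgeR, between 0.00548 and 0.533 over the alternatives) and after cotreatment at 0.55 (adjusted P = 0.00609, between 0.00166 and 0.688). With run terms of their own for tumors given cisplatin and for the rest, Abcg1 was at -0.16 and -0.08 in the earlier run and was not called there, and Mylip, at 0.32 after cisplatin, was not called there either (adjusted P = 0.0768, the highest of the alternatives, the lowest being 2.11e-05). Stard4, a carrier of cholesterol between membranes, was lower at -0.69 ± 0.19 and -0.57 ± 0.19, and single tumors ended both calls. The cisplatin call was lost without vehicle tumor 4 (-0.62, adjusted P = 0.0524, edgeR). The cotreatment call was lost without vehicle tumor 2 or 4 or cotreated tumor 2, 4 or 5 (-0.54 to -0.50, adjusted P = 0.0543 to 0.0649, edgeR).

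Cotreated tumors were compared with the same vehicle tumors, so that this comparison and the last share their controls. It changed 25 of the 36 genes, 3 higher (Mylip, Lpin1 and Scap) and 22 lower, where 23.5% of all genes tested were called, 13.1% higher and 10.4% lower. The median log2 fold change was -0.50 over the 36 genes and -0.02 over all genes tested, and cotreated tumors lay wholly below vehicle in 15 genes (12.4% of all genes tested) and wholly above in 3 (12.2%). Leaving out single tumors ended some of these calls. The Fdps call (-0.53) was lost without any one of vehicle tumors 2 to 5, KW6002 tumor 4, cisplatin tumor 5 or cotreated tumors 2, 3 or 4. Its value was then -0.55 to -0.41 (adjusted P = 0.0501 to 0.114, edgeR). The Mvk call (-0.42) was lost without vehicle tumor 3 or cotreated tumor 3, 4 or 5 (-0.41 to -0.30, adjusted P = 0.0535 to 0.115, edgeR). That of Idi1 was lost without vehicle tumor 4 (-0.60, adjusted P = 0.0634, edgeR). In the other direction, Hsd17b7 was called lower without cisplatin tumor 1 or 4 or cotreated tumor 1 or 3 (adjusted P = 0.0168 to 0.0405), Insig1 and Acaca were called lower without cotreated tumor 1, and Acss2 was called higher without vehicle tumor 2 or cotreated tumor 1, 4 or 5.

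Cotreated and cisplatin tumors were set against each other to ask whether KW6002 altered these genes when cisplatin was given. In edgeR 1 of 36 genes was called, higher, where 4.0% of all genes tested were called, 2.29% higher and 1.71% lower, and 3 had an unadjusted P value under 0.05, as 23.3% of all genes tested did. The called gene was Lpin1 (ENSMUSG00000020593, chromosome 12, 16535669 to 16610966), a phosphatidic acid phosphatase on the way to triglycerides and phospholipids. Its level was 59.4, 64.7, 47.5, 59.4 and 56.3 CPM in vehicle, 57.5, 64.1, 49.5, 59.0 and 50.9 CPM in KW6002, 64.7, 62.5, 54.0, 54.1 and 60.4 CPM in cisplatin, and 86.2, 91.1, 78.4, 73.4 and 80.3 CPM in cotreated tumors. Each cotreated tumor lay above each of the 15 other tumors, and the vehicle, KW6002 and cisplatin ranges overlapped. It was the single member whose cotreated and cisplatin tumors did not overlap (2.33% of all genes tested lay wholly higher and 2.5% wholly lower). As counts, 1 of 36 called and 1 of 36 not overlapping are close to the shares over all genes tested. The log2 fold change of Lpin1 was 0.47 ± 0.084 against cisplatin (adjusted P = 0.00355, edgeR), 0.51 ± 0.084 against vehicle and 0.54 ± 0.084 against KW6002. In the later run of library codes alone, with 2 cotreated and 3 cisplatin tumors, it was 0.45 against cisplatin (adjusted P = 0.207 in edgeR, between 1.53e-05 and 0.207 over the alternatives), in a fit that called 1 of all 17222 genes tested for this comparison.

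The 16 mevalonate and sterol genes had a median difference of 0.14 between cotreated and cisplatin tumors, and 14 of the 16 had a positive value, against a median of -0.01 and 48.8% positive values over all genes tested. These genes moved together between tumors of a group, so their signs are not independent and were not tested. With KW6002 alone 12 of the 16 were positive against vehicle, as were 48.2% of all genes tested. The earlier run of library codes held 3 of the 5 cotreated and 2 of the 5 cisplatin tumors. Between cotreated and cisplatin tumors none of the 16 was called, where 4.0% of all genes tested were. An unadjusted P value under 0.05 (edgeR) was found for 1 of the 16, against 23.3% of all genes tested. The widest were Hsd17b7 (0.42 ± 0.18, adjusted P = 0.166, edgeR), Fdps (0.35 ± 0.20) and Hmgcs1 (0.32 ± 0.17). Without cisplatin tumor 1 Hsd17b7 passed, at 0.58 (adjusted P = 0.0382, between 0.0382 and 0.384 over the alternatives). For Dhcr7, Cyp51 and Srebf2 the difference was 0.00 ± 0.10, 0.02 ± 0.17 and -0.01 ± 0.10.

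Cotreated tumors were also compared with KW6002 tumors, so as to see what cisplatin did where both groups had received the antagonist. It changed 27 of the 36 genes, 3 higher (Mylip, Lpin1 and Acss2) and 24 lower, where 23.3% of all genes tested were called, 12.6% higher and 10.7% lower. Cotreated tumors lay wholly below KW6002 tumors in 17 genes (12.7% of all genes tested) and wholly above in 3 (12.2%). All 16 mevalonate and sterol genes were called lower, with a median of -0.69. The Stard4 call (-0.52) was lost without KW6002 tumor 1, 2, 4 or 5 or cotreated tumor 2, 4 or 5 (-0.53 to -0.46). The Mvk call (-0.44) was lost without KW6002 tumor 1 or 3 or cotreated tumor 4 (-0.40 to -0.38). Hsd17b7 (-0.55) lost its call without cotreated tumor 4 or 5 (-0.47 to -0.44). Acss2 (0.35) lost its call without KW6002 tumor 4 or cotreated tumor 3 (0.30 to 0.31, below the fold limit). Scap was called higher without KW6002 tumor 2 or 3 or cotreated tumor 4 or 5, Scd2 lower without KW6002 tumor 3 or cotreated tumor 1 or 5, and Acaca lower without cotreated tumor 1. The interaction, that is the difference between cotreated and cisplatin tumors less that between KW6002 and vehicle tumors, was called for 0 of the 36 genes in edgeR, where 0.0660% of all genes tested were called, 0.0360% higher and 0.0300% lower, and 1 gene had an unadjusted P value under 0.05, as 12.2% of all genes tested did. That gene was Lpin1, at 0.50 ± 0.12 (adjusted P = 0.0846, edgeR), which DESeq2 called (adjusted P = 0.012) and edgeR called without cotreated tumor 4 (adjusted P = 0.0313), against a range of 0.012 to 0.602 over the alternatives. Those fits called 1.27% and 1.36% of all genes tested for the interaction. Over the 36 genes the interaction lay between -0.23 and 0.63, the highest being Scd1 with a standard error of 0.44.

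**Figure D4:**
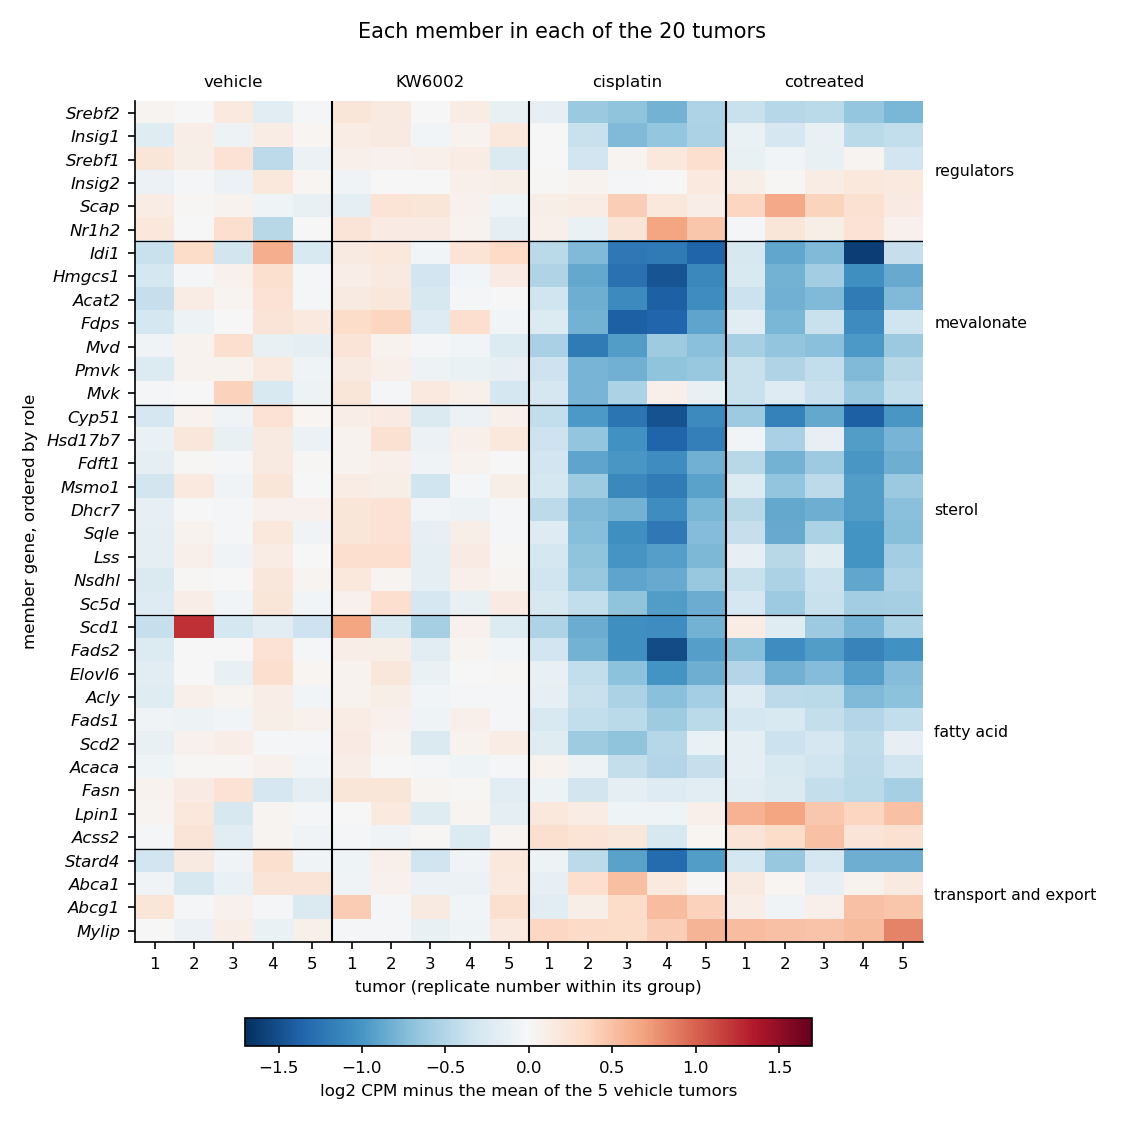
Log2 CPM of each gene in each tumor minus the mean of the 5 vehicle tumors (blue, lower; red, higher), with genes in rows by role and tumors in columns by group. The mevalonate and sterol rows are blue in most cisplatin and cotreated tumors, palest in tumor 1 of each arm in most rows, and the single red cell in the Scd1 row of the vehicle group is tumor 2.

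Tumors of 1 group differed from each other in the same direction across these genes. Cisplatin tumor 1 had the highest level of its group in 15 of the 16 mevalonate and sterol genes. Cotreated tumor 1 was highest in 14 and cotreated tumor 4 lowest in 15, vehicle tumor 1 was lowest in 13, and KW6002 tumor 3 lowest in 12. The median coefficient of variation over these genes was 12.3% in vehicle, 11.3% in KW6002, 25% in cisplatin and 18.0% in cotreated tumors. Summed levels of 8 macrophage markers in cisplatin tumors 1 to 5 were 1280, 1450, 2000, 2310 and 1830 CPM. The mean log2 difference from vehicle over the 16 genes was -0.36, -0.78, -1, -1.04 and -0.85, in the reverse order. In cotreated tumors 1 to 5 the sums were 1300, 1670, 1300, 1550 and 1710 CPM. The means there were -0.34, -0.7, -0.52, -1 and -0.64, not in reverse order. These markers were picked after the values were seen, and their part was not tested.

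The library codes in the sample labels fall into an earlier run (1 vehicle, 2 KW6002, 2 cisplatin and 3 cotreated tumors) and a later run (4, 3, 3 and 2), and the labels do not say what a run stands for. The mean log2 difference from vehicle over the 16 genes was -0.57 in the 2 earlier and -0.96 in the 3 later cisplatin tumors, and -0.52 in the 3 earlier and -0.82 in the 2 later cotreated tumors. It was 0.16 in the 2 earlier and -0.03 in the 3 later KW6002 tumors, and, in the opposite order, -0.22 in the 1 earlier and 0.06 in the 4 later vehicle tumors. Both earlier cisplatin tumors lay above all 3 later ones in 11 of the 16 genes (24.4% of all genes tested, with 22.7% wholly below), and all 3 earlier cotreated tumors lay above both later ones in 5 (16.7% of all genes tested, with 16.2% wholly below). In the later run alone 27 of the 36 genes were called after cisplatin, where 15.9% of all genes tested were called, and 26 after cotreatment, where 12.8% were, both against vehicle. With a run term of its own for tumors given cisplatin and another for the rest, chosen after seeing the data, 28 genes were called after cisplatin in the later run (14.8% of all genes tested) and 13 in the earlier run (6.62%), which holds a single vehicle tumor. The 12 calls lost there were those of Idi1, Fdps, Sc5d, Msmo1, Acat2, Insig1, Stard4, Acly, Scd1, Scd2, Elovl6 and Mylip. Among these, the log2 value there was -0.69 for Fdps, -0.65 for Acat2, -0.62 for Idi1, -0.51 for Msmo1 and -0.50 for Sc5d. It was -0.28 for Stard4, -0.24 for Acly and -0.20 for Insig1. After cotreatment 20 genes were called in the earlier run (22.8%), without Idi1, Fdps, Lss, Msmo1, Mvk and Stard4 and with Acss2, higher. With 1 run term for all tumors, 25 genes were called after cisplatin (11.1% of all genes tested) and 28 after cotreatment (22.9%), where Insig1 (-0.36), Hsd17b7 (-0.64) and Acaca (-0.38) were called lower. Hmgcs1, for example, ranged over the alternatives from -1.33 after cisplatin in the later run alone (adjusted P = 3.17e-05) to -0.73 in the earlier run with separate terms (adjusted P = 0.0241), with adjusted P values between 1.99e-08 and 0.0241.

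**Figure D5:**
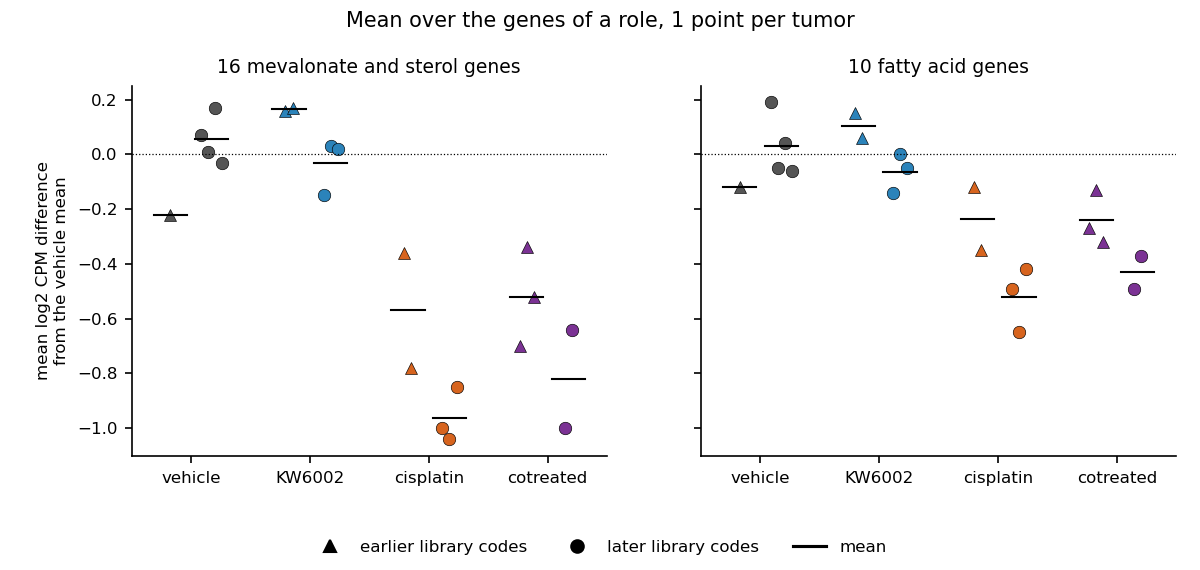
Mean log2 CPM difference from the vehicle mean over the 16 mevalonate and sterol genes and over the 10 fatty acid genes (vertical axis), 1 point per tumor, by group and run of library codes, with the mean of each run as a line. In both cisplatin arms the later tumors average lower than the earlier ones, and the 1 earlier vehicle tumor lies below the other 4.

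Beside the 36 genes, 37 of 38 other genes of sterol and fatty acid metabolism were tested. After cisplatin 4 were higher and 4 lower, with a median of -0.12, where 6.01% of all genes tested were called higher and 4.57% lower. After cotreatment 2 were higher and 8 lower, with a median of -0.13, where 13.1% of all genes tested were called higher and 10.4% lower. Acsl3, a synthetase that activates long fatty acids, went from 83.5 ± 7.26 CPM in vehicle to 52.6 ± 6.08 CPM after cisplatin and 55.4 ± 6.81 CPM after cotreatment (SD, n = 5). Slc25a1, the mitochondrial citrate carrier that supplies Acly, went from 50.6 ± 2.45 to 39.3 ± 3.12 and 37.8 ± 3.11 CPM, and Nceh1, a cholesteryl ester hydrolase, from 135 ± 9.35 to 107 ± 7.96 and 96.4 ± 11.4 CPM, both called lower in each arm. Acsl5, another acyl-CoA synthetase (-0.13 and -0.54), and Tmem97, a sterol-binding membrane protein (-0.24 and -0.46), were called lower after cotreatment and not after cisplatin, and of these Acsl5 differed from cisplatin tumors (-0.42, adjusted P = 0.00183, edgeR). Elovl5, an elongase of polyunsaturated fatty acids (0.43 ± 0.067), and Nr1h4 (1.77 ± 0.35) were the other genes of the list called between cotreated and cisplatin tumors, both higher with cotreatment. The genes called higher after cisplatin were Cpt1a, Acaa2, Elovl7 and Nr1h4, and after cotreatment Cpt1a and Nr1h4. Cpt1a, which admits long fatty acids to mitochondria for oxidation, went from 170 ± 23.2 CPM in vehicle to 255 ± 30.7 CPM after cisplatin and 226 ± 38.3 CPM after cotreatment (SD, n = 5). Acaa2, a thiolase of mitochondrial fatty acid oxidation, went from 50.3 ± 1.8 to 66.8 ± 9.34 CPM after cisplatin and was at 56.7 ± 12.5 CPM after cotreatment, where it was not called. Nr1h4, the bile acid receptor FXR, was scarce at 0.262 ± 0.128 CPM in vehicle tumors and higher at 2.02 ± 0.68 CPM after cisplatin and 6.93 ± 3.54 CPM after cotreatment (SD, n = 5).

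Markers of other cells moved with cisplatin as well, and their part in the changes above was not tested. Summed levels of 5 endothelial markers were 129 to 194 CPM in vehicle, 62.0 to 84.0 CPM in cisplatin and 65.7 to 101 CPM in cotreated tumors, with all 5 called lower in both arms. The 5 red cell markers summed to 25.9 to 117 CPM in vehicle and to at most 0.11 CPM in tumors given cisplatin, with all 5 called lower in both arms. The 5 neutrophil markers summed to 44.7 to 120 CPM in vehicle, 13.6 to 67.3 CPM in cisplatin and 13.6 to 32.3 CPM in cotreated tumors, with 2 called lower after cisplatin and 4 after cotreatment. The 6 fibroblast markers summed to 2620 to 3200 CPM in vehicle, 2150 to 3880 CPM in cisplatin and 2540 to 3350 CPM in cotreated tumors, with 3 and 2 called lower. Macrophage markers, 8 in all, summed to 1180 to 1650 CPM in vehicle, 1280 to 2310 CPM in cisplatin and 1300 to 1710 CPM in cotreated tumors, and Mrc1 was the single one called after cisplatin, higher. After cotreatment Mrc1 and Cd163 were called higher and Csf1r lower. The 5 carcinoma markers, mostly Krt8 and Krt18, summed to 391 to 424 CPM in vehicle, 479 to 595 CPM in cisplatin and 467 to 547 CPM in cotreated tumors, with Krt8 and Krt7 called higher in both arms. The 6 proliferation markers summed to 1350 to 1590 CPM in vehicle, 1290 to 1490 CPM in cisplatin and 1050 to 1310 CPM in cotreated tumors, with 4 called lower after cotreatment. The 5 skeletal muscle markers ranged from 2.38 to 51.0 CPM in vehicle, 2.01 to 230 CPM in cisplatin and 2.12 to 970 CPM in cotreated tumors, and the 6 markers of T and natural killer cells summed to 1.65 to 6.74 CPM in vehicle, 1.72 to 7.24 CPM in cisplatin and 1.76 to 3.5 CPM in cotreated tumors (medians 6.4, 2.42 and 2.34 CPM), with none called in either arm. Of the markers of sebaceous gland and epidermis, tissues of skin with active lipid synthesis, Krt5, Krt14, Krt79 and Lor had at most 2 counts in any tumor, whereas Awat2 reached 1.69 CPM (53 counts) and Krt10 1.75 CPM (57 counts).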

How the data were processed

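RNA of 20 LLC1 tumors was sequenced single-end after poly(A) selection with a stranded TruSeq kit. Per the submitters' processing notes, reads were demultiplexed with bcl2fastq 2.17.1.14, aligned to mm10 with STAR and counted per Ensembl gene with HTSeq 0.6.1p1. The study's methods state that reads without a unique alignment were discarded. The strand setting is not given in the sources used here. The authors deposited these values as raw counts per gene, 1 column per tumor, and no column was left unused. Totals lay between 28.4 and 41 M reads, and 0 pairs of columns were identical.

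Groups were taken from the sample labels. The labels do not say more of the tumors than their number, so that P values measure the spread between these samples. The test was edgeR 4.0.16 (R 4.3.3), quasi-likelihood with robust estimation and TMM scaling, on the 16665 genes kept by filterByExpr, with 4 group means fitted to all 20 tumors. All tests were 2-sided, with Benjamini-Hochberg adjustment over all genes tested. Log2 CPM used a prior count of 2. The fit was tested on simulated data. Reads carry no molecular identifiers.

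The 36 genes and the other lists were chosen with earlier results of these data known. Values in every tumor are given for the 16 genes with the smallest adjusted P value in any comparison, and other genes by counts, ranges and the largest change per role. Alternatives were DESeq2 1.42.0, RLE scaling, no filter on counts or a minimum of 10 in every tumor, calls with no limit on the fold, the replicate number or the library code run as a term, the later run alone, the compared groups alone, and leaving out each tumor. The adipocyte marker level as a term and separate run terms were added after seeing the data. Gene positions are from GENCODE on GRCm38, and promoters from RefSeq.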

Additional observations from a re-analysis of the deposited data

Results flagged for a closer look

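In each group of 5 tumors the highest and the lowest CPM of each of the 36 genes were compared with the nearest other tumor by Dixon's ratio. Of 144 groups, 5 held a tumor past the 95% limit, and chance alone passes about 1 in 20 groups.

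Scd1 was at 731 CPM in vehicle tumor 2, and at 234 to 269 CPM in the other vehicle tumors. Fdft1 was at 59.7 CPM in cisplatin tumor 1, and at 35.8 to 42.6 CPM in the others of its group. Mylip was at 45.2 CPM in cotreated tumor 5, against 35.2 to 36.6 CPM. Scap was at 135 CPM in cisplatin tumor 3, against 108 to 115 CPM. Srebf1 was at 76.9 CPM in KW6002 tumor 5, below the 96.6 to 99.8 CPM of the others.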

How the results depend on the processing

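Over 31 settings that refit the data, 2329 of the repeated calls of single genes were kept, 89 were lost and none changed direction. Calls kept in every one numbered 13 of 25 for cisplatin with vehicle, 17 of 25 for cotreatment with vehicle, 18 of 27 for cotreatment with KW6002 and 0 of 1 for cotreatment with cisplatin. With separate run terms, added after seeing the data, 13 genes were called after cisplatin in the earlier run, which holds 1 vehicle tumor. There 6.62% of all genes tested were called. In the later run alone 0 genes of the list, and 1 of all 17222 tested, were called between cotreated and cisplatin tumors. DESeq2 called 1 gene of the list for the interaction, and 1.27% of all genes tested. The cause of these differences was not tested. Leaving out each tumor in turn, 24 to 26 genes were called after cisplatin (8.2% to 12.2% of all genes tested) and 22 to 29 after cotreatment (between 3327 of 16805 and 4063 of 16789 genes tested), both against vehicle, and 0 in every case with KW6002 alone (0%). Cotreated tumors differed from cisplatin tumors in 1 to 2 genes (1.72% to 6.03%) and from KW6002 tumors in 25 to 29 (19.6% to 24.2%), and the interaction was called for 0 to 1 (0% to 1.36%). RLE scaling called as many genes of the list as TMM in each comparison, and 10.5% of all genes tested after cisplatin, 23.3% after cotreatment and 3.91% between cotreated and cisplatin tumors.

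The titles give replicate numbers in every group, but tumors with the same number did not deviate together (r between -0.39 and 0.39, median -0.03, against a median of 0.01 for other numbers), and 3 of 20 tumors correlated best with a tumor of their own number. With the replicate block 25 genes were called after cisplatin (9.66% of all genes tested), 26 after cotreatment (22.6%) and 0 after KW6002 (0%), against vehicle. Cotreated tumors then differed from cisplatin tumors in 1 gene (3.5%) and from KW6002 tumors in 27 (22.6%), with 0 for the interaction (0%). Idi1, at 27 to 135 counts per tumor, is the member that depth limits most.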
